A study of Mus musculus with 38 samples.

Results

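The 7 genes described here, Sfrp5, Npr3, Car3, Sncg, Npy1r, Tcf21 and Wt1, are used as markers of white fat, and they were followed on 38 arrays labelled brown adipose tissue. They were found by exact match of the gene name on the array, which gave all 7 of 29411 gene names. The mice were C57BL/6J, put on their diets after weaning at 3 to 4 weeks of age. LFC mice ate the low-fat control diet with 10% of calories from fat, and HFC mice ate the diet high in fat and sucrose with 60% of calories from fat. HF5, HF20 and HF75 mice ate that same high-fat diet with 5, 20 or 75 µg of Kal-1, a botanical formulation, so that HFC is their control. LFC and HFC each had 10 arrays (Day 6, Day 10, Day 14 and Weeks 0, 3, 6, 9, 12, 15 and 18), and each Kal-1 group had 6 arrays (Weeks 3 to 18). Each group had a single array at each of its time points. In the comparisons of groups the p-values therefore treat the time points as the replicates and measure the spread between them. The trend over days has no time point block and takes each LFC and HFC array as a replicate. The series' own design text speaks of 3 biological replicates, which does not match a single array per group and time point, and whether an array held RNA of 1 animal or of several was not given in the sources used here.

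Brown fat burns lipid for heat through the uncoupling protein Ucp1, while white fat stores lipid and secretes hormones such as leptin. The 2 tissues share the machinery of fat storage and differ in a limited number of genes. White depots inside the abdomen are also covered by mesothelium, the lining cells in which the transcription factor Wt1 is known to be active, whereas the interscapular brown pad has no such lining. Of the 7 genes, Sfrp5 encodes a secreted Wnt antagonist, Npr3 the clearance receptor of natriuretic peptides, Npy1r a receptor of neuropeptide Y, Car3 a cytosolic carbonic anhydrase that is abundant in fat cells, Sncg the synuclein found in fat cells, and Tcf21 and Wt1 are transcription factors. In whole tissue, fewer cells of a type and less RNA per cell cannot be told apart.

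Every value below is the signal of a single probe for each gene. The first 30 bases of the 60-base probe are shown for 5 of the genes because they identify what was hybridised, and no letters are marked.
Sfrp5: aagaataaggagatgaagtttgcggtcaaa
Npr3: aaacgtaccatgaatctggtagaagagtcc
Npy1r: ttcctctctatttctgtaaggactcaattt
Tcf21: ttatggtggccggcaaaccagagaatgacc
Wt1: cactggtaagactgttcttaagtaacttaa
Npr3 had 3 probes, of which the probe with the highest mean was used, and each other gene had 1 probe.

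A level here is the log2 of the scanner's processed intensity minus the log2 of the 75th percentile of the same array, so that 0 lies at the 75th percentile. Levels of different genes were not set against each other, because each probe has its own response. The 75th percentile ranged from 35.1 to 1209 intensity units. The 11 arrays above 600 units are called bright and the other 27 dim. The bright arrays were unevenly spread, with 4 in LFC, 2 in HFC, none in HF5, 4 in HF20 and 1 in HF75. A signal that sits at an array's background reads lower on a bright array on this scale. The floor of an array is the smallest signal among its spots flagged well above background. Where arrays are given at their floors, readings under the floor were raised to it. The floor is not a strict limit for signals without the flag. On HF20 Week 12, Sfrp5 read 17.6 units and was not well above background, although the floor was 11.4. Folds and orders given at the floors are therefore not strict bounds. Npr3, Car3 and Sncg were well above background on all 38 arrays, Npy1r on 22, Sfrp5 on 17, Tcf21 on 5 and Wt1 on 1. Car3 was saturated on 10 arrays (3 LFC, 2 HFC, 4 HF20 and 1 HF75), where its level is a lower bound. The tests took a gene if at least 6 of the 38 arrays measured it well above background, which kept 21623 genes and 5 of the 7 white fat genes. Tcf21 and Wt1 did not enter them.

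The array labelled HF75 Week 3 went against its tissue label. Its Ucp1 level was -3.07, while the other 37 arrays lay between 3.38 and 8.57. Its level of Cidea, a lipid droplet protein of brown fat, was -1.78 against 5.58 to 8.77 on the others. Against the median of the other 5 HF75 arrays, its Ucp1 signal was 0.175% and its Cidea signal 0.332%. Of 15 brown adipocyte genes on the array, 11 were lower there than on every other array and 0 were higher. Over all genes tested, 9.73% were lower and 5.77% higher there than on the other 37 arrays by their readings. With signals at their floors and saturation allowed for, 5.33% of all genes were lower and 5.18% higher. Of the 15 brown adipocyte genes 7 were lower on that count. Shares of this size by readings were not particular to that array. HF20 Week 6 had 9.86% of all genes at their lowest and 5.87% at their highest, and HFC Week 18 had 8.09% and 11.7%. Zic1, Lhx8, Elovl3 and Otop1 were not well above background on HF75 Week 3. Not every brown adipocyte gene fell. Against the highest of the other 5 HF75 arrays, with those at their floors, Ebf2 was 2.94-fold, Adrb3 1.08-fold and Prdm16 0.67-fold. Genes that all fat cells use were present, with Adipoq (adiponectin) at 4.16 and Fabp4 (the fatty acid carrier) at 6.12, the latter saturated. The HF75 comparison and the test among the doses are therefore given with the array labelled HF75 Week 3 and without it. The HF5 and HF20 comparisons shared their estimate of the spread with it and were not refitted without that array alone.

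Wt1 was measured well above background only on the array labelled HF75 Week 3. Its level there was 0.54, from a signal of 1270 intensity units. On the other 37 arrays it lay between -8.78 and -3.85 and was never well above background. The other 5 HF75 arrays read, from Week 6 to Week 18, -5.70, -4.38, -5.07, -6.43 and -4.78. The group therefore split into 1 array with a Wt1 signal well above background and 5 without. The LFC, HFC and HF20 arrays of the same week were scanned on the same day and are also bright, and there Wt1 lay at -8.17, -8.12 and -8.59. With each of those 3 arrays at its floor, the Wt1 signal of HF75 Week 3 was 103-fold their mean. With the other 5 HF75 arrays at their floors it was 12.5-fold their mean, and 6.62-fold the array with the highest floor among them. These are differences between single arrays and have no test.

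Tcf21 and Npy1r also had their highest reading on that array. Tcf21, a factor of mesenchymal cells that marks white fat precursors, read -1.23 there, with the other HF75 arrays at -5.72, -4.36, -5.07, -6.03 and -4.78 in order of week, none of them well above background. With arrays at their floors the Tcf21 signal was 3.66-fold the mean of those 5 and 1.94-fold the one with the highest floor. It was 30.1-fold the mean of the 3 bright arrays of Week 3. The HFC array of Week 12 came next for Tcf21, at -1.55, and it was well above background too, so a Tcf21 signal was not particular to the HF75 array. The remaining 3 arrays with a measured Tcf21 signal were LFC Day 14 (-4.38), HFC Day 14 (-3.44) and HF5 Week 12 (-2.82). Npy1r read -1.89 on HF75 Week 3, and the other HF75 arrays read -4.25, -4.41, -5.07, -3.63 and -4.27, of which 1 was well above background. The highest Npy1r reading on any other array was -2.59. The floor of HF5 Week 18, where Npy1r was not well above background, lay at -1.71, so the order of those arrays is not settled. With a background correction that adds an offset to all signals (normexp), the differences from the other HF75 arrays turned to -1.38 for Npy1r and -1.04 for Tcf21, while the differences from the bright arrays of Week 3 kept their sign at 1.69 and 2.34. Under the same correction Wt1 kept its sign on both sides, at 0.80 and 4.20 on the log2 scale. The offset was 50 units, while the 75th percentile was 871 on HF75 Week 3 and 35.1 to 213 on the other HF75 arrays. It therefore weighs more on those dim arrays, so the normexp signs against them do not settle an order.

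Npr3, whose product removes natriuretic peptides from the circulation, was highest on the same array, at 2.94. The other HF75 arrays read between 0.57 and 1.68, with a median of 1.03. The next highest array of the whole set was HF20 Week 6 at 2.77, so the 2 arrays differed by less than the SD within either group (0.83 in both). All 3 Npr3 probes were higher on HF75 Week 3 than the median of the other HF75 arrays, by 1.90, 1.62 and 1.27. Sncg read 1.60 there against 0.57, 0.42, 0.20, 0.78 and 0.65, at the rank of 2 among 38. Car3 was saturated there, so that its reading of 6.07 is a lower bound, and the other HF75 arrays read 5.06 to 6.55. Sfrp5 read -5.66 and was well above background there, while the other HF75 arrays read -4.56 to -3.54. None of those was well above background, so no order against them is given. The bright LFC and HF20 arrays of Week 3 measured Sfrp5 higher, at -3.57 and -4.27, while HFC read -6.00 and was not well above background. Against the mean of those 3 bright arrays, HF75 Week 3 differed by -1.04 on the log2 scale, and by -0.47 with normexp.

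In all, 4 of the 7 white fat genes (Npr3, Npy1r, Tcf21 and Wt1) had a higher reading on HF75 Week 3 than on the other 37 arrays and 0 a lower one, beside 5.77% and 9.73% of all genes tested. With the other arrays at their floors 3 of them, Npr3, Tcf21 and Wt1, were still highest there, beside 5.18% of all genes tested. Among the 5 that entered the tests the count by readings was 2, and at the floors only Npr3 remained. HF75 Week 3 was singled out beforehand and the genes were chosen with earlier results of these data known. These counts are therefore a description and no test. The highest reading of Sncg was on HF20 Week 12 (2.93), and which array was highest for Car3 is not known because of the saturated arrays.

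**Figure D1:**
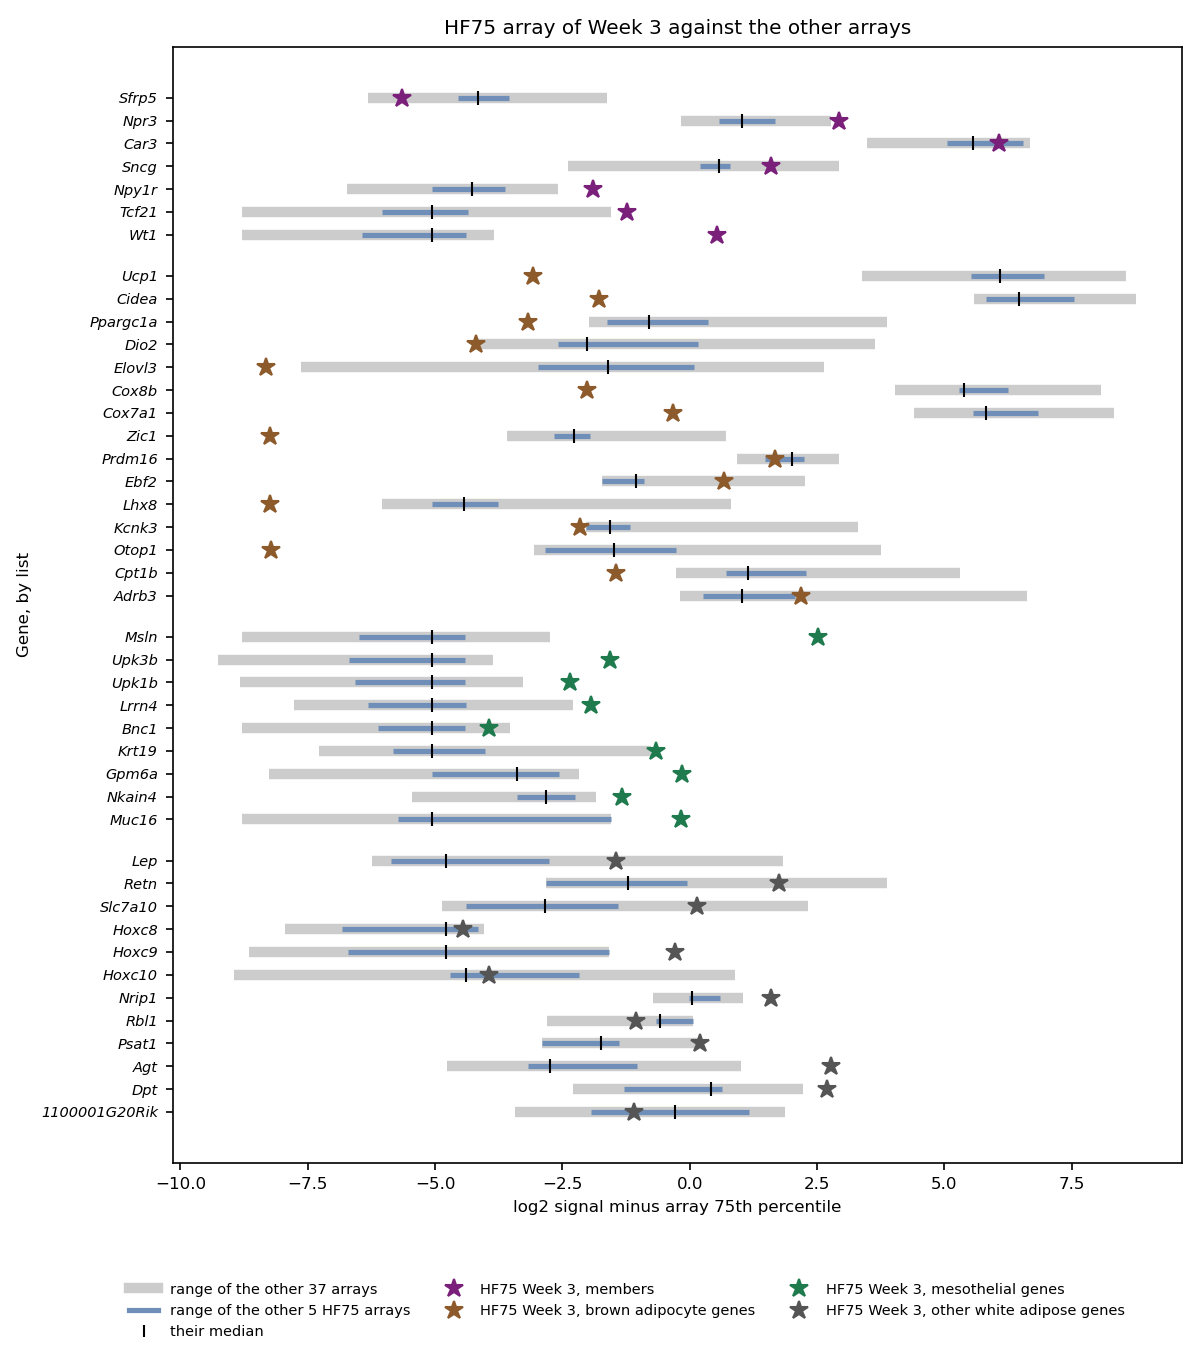
Levels on the array labelled HF75 Week 3 (stars) beside the range of the other 37 arrays (grey) and of the other 5 HF75 arrays (blue, black tick at their median), as log2 signal minus the array's 75th percentile. Wt1 at 0.54 and Ucp1 at -3.07 lie far outside the range of the other arrays, on opposite sides. The Car3 star is a lower bound because that spot was saturated.

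Other gene lists on the same array are given as counts, without a test. Among 12 other genes used as white fat markers, 5 were higher there than on any other array and 0 lower, also with the other arrays at their floors. The 3 with the greatest distance from the median reading of the other HF75 arrays were Agt, Hoxc9 and Lep. Agt (angiotensinogen) read 2.78, a difference of 5.51, and 3.05 with normexp. Hoxc9, a homeobox gene of posterior position, read -0.28, but only 1 of the other 5 HF75 arrays measured it well above background, and the difference of 4.50 fell to 2.18 at their floors and 0.14 with normexp. Lep (leptin) read -1.44, and none of the other 5 HF75 arrays measured it well above background. Its difference of 3.34 from their readings became 1.31 at their floors and -1.02 with normexp, and against the bright arrays of Week 3, which all measured it, Lep was -2.21 on the log2 scale. Lep and Retn (resistin) were not at their highest, since other arrays reached 1.83 and 3.88. Of 9 mesothelial genes, 8 had a higher reading there than on any other array, 6 also with the others at their floors, and all 9 were well above background. For 6 of the 9 none of the other HF75 arrays was well above background. With normexp 7 of the 9 lay below the median of the other HF75 arrays, all but Msln (2.59) and Gpm6a (0.20). All 9 lay above the bright arrays of Week 3. The normexp values against the other HF75 arrays in this paragraph also carry the limit that the offset weighs more on dim arrays. Msln, which encodes the surface protein mesothelin, read 2.51 against at most -2.74 elsewhere. Muc16 (a mesothelial mucin, -0.18) and Krt19 (a keratin, -0.67) followed, although another array came close for Krt19, at -0.77. The mean reading of the mesothelial list was -1.07 on this array, and it lay between -7.07 and -3.30 on the other 37. Of 8 genes of adipose progenitors and fibroblasts, 4 were higher there than elsewhere, with Pi16 at 2.30, Dpp4 at -0.71 and Pdgfra (the platelet-derived growth factor receptor of those cells) at 1.34.

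Lists of other cell types lay on both sides. Of 6 macrophage genes 2 were at their highest there, with Mrc1 at 2.34 and Emr1 at 2.64, and Csf1r at 0.39 was inside the range of the others. Of 5 erythroid genes 3 were at their lowest, with Slc4a1 at -4.61, Alas2 at -0.20 and Hba-a1 at 5.14. Of 10 skeletal muscle genes 0 were at their highest and 1 had its lowest reading, the oxygen store Mb at -6.98 and not well above background, with Tnnt3 at -5.07 and Ckm at -6.96. Of 6 lymphocyte genes 1 was at its highest, the B cell gene Ms4a1 at 0.03, while Cd79a read -6.68 and Cd3e -5.07. Of 10 genes shared by brown and white fat cells 3 were at their lowest (Pparg, Lipe and Lpl) and 0 at their highest. The part of each cell type in the levels of the 7 genes was not tested.

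**Figure D2:**
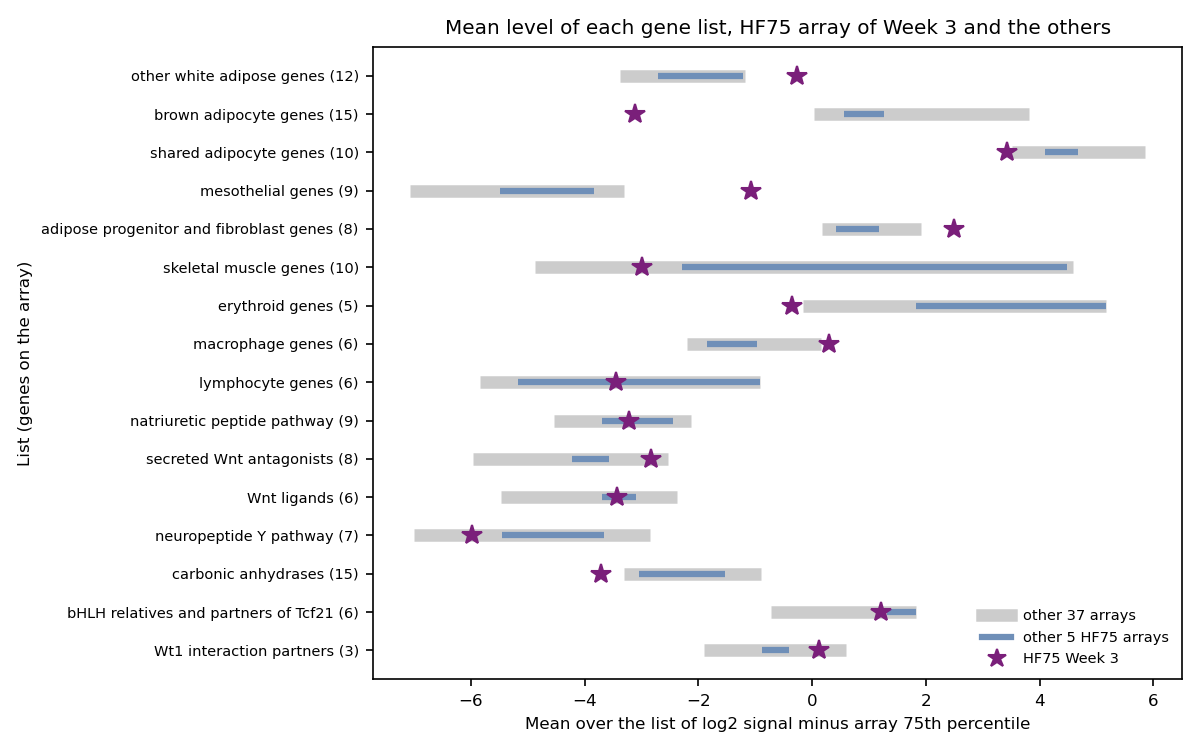
Mean level of the gene lists, as log2 signal minus the array's 75th percentile, on the array labelled HF75 Week 3 (stars), with the range over the other 5 HF75 arrays (blue) and over the other 37 arrays (grey). The number of genes on the array follows each list name. Readings that are not well above background are included. The mesothelial mean of -1.07 lies above every other array and the brown adipocyte mean of -3.11 below every other array.

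Genes near in function to the 7 were read in the same way. Among 8 secreted Wnt antagonists beside Sfrp5, 3 were at their highest on HF75 Week 3, namely Sfrp1 (0.91), Sfrp2 (0.63) and Dkk2 (-0.92), while Wif1 was not well above background there. Of 6 Wnt ligands 0 were at an extreme, with Wnt10b at -8.36, Wnt11 at -1.48 and Wnt6 at -3.20. In the natriuretic peptide pathway around Npr3, 1 of 9 genes was at its highest, Prkg1, the cGMP-dependent kinase downstream of the receptors, at -1.05. The peptide genes Nppa and Nppc read -5.62 and -6.39, and the signalling receptors Npr1 and Npr2 read -3.08 and 1.12, all inside the range of the other arrays. In the neuropeptide Y pathway around Npy1r, 1 of 7 genes was at its highest, Dpp4, a peptidase that trims neuropeptide Y, and Npy itself and Npy5r read -8.32 and were not well above background. Of 15 carbonic anhydrases other than Car3, 0 were at an extreme, and the 3 farthest from the other HF75 arrays, Car12, Car5a and Car10, were not well above background. Among 6 relatives and partners of Tcf21, 1 was at its highest, the partner Tcf3 at 3.79, with Tcf23 at -1.10 and Tcf15 at 4.18. Among 3 partners of Wt1, Wtip was at its highest at 4.38, and Basp1 and Wtap read -3.70 and -0.33.

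Sequence upstream of the start of transcription is shown as the 250 bases before the start. The 3 genes shown had their highest reading on HF75 Week 3 and an entry in the RefSeq promoter table (build GRCm38.p6). Capitals mark the TATA box with the letters TATAAA, the box with the letters CCAAT, or the GC box with the letters GGGCGG, on either strand.
Npr3, chr15:11907372-11907621, minus strand: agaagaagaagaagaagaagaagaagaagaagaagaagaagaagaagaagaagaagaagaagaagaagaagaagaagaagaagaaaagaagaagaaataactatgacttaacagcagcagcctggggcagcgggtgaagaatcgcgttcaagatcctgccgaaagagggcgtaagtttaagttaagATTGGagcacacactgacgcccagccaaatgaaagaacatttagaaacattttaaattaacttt
Npy1r, chr8:66697172-66697421, plus strand: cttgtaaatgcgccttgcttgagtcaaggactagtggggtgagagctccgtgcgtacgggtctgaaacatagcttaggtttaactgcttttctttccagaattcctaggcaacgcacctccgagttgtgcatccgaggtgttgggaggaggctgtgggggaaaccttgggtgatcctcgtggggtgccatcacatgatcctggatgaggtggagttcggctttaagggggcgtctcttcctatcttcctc
Tcf21, chr10:22820144-22820393, minus strand: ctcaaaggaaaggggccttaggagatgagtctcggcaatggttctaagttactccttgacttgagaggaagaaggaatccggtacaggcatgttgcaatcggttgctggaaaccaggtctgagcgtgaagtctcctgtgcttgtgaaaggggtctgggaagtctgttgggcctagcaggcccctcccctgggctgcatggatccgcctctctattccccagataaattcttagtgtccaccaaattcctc
Wt1 and Car3 had no entry. TATAAA was found in 12.4% of all 32851 promoters of this length, CCAAT in 33.8%, GGGCGG in 32.7% and the E-box CANNTG, the letters that factors of the Tcf21 family bind, in 66.2%. The Npr3 window held 1 CCAAT, 1 E-box and a long run of aag repeats. The Npy1r window held 1 E-box and 10 CpG, against a median of 6 CpG over all promoters. The Tcf21 window held none of the 4 motifs and 5 CpG. Of the other members, Sfrp5 and Sncg each held 1 GGGCGG and 1 E-box. A match describes letters in this window only.

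The first comparison asked how the high-fat diet changed the 7 genes at the same time points. Car3 had the smallest p-value of the 5 genes tested. Its LFC levels ran from 3.49 through a median of 4.62 to 6.65, and its HFC levels from 4.85 through 5.83 to 6.68. The groups overlapped, although the 6 lowest levels of both groups together were all LFC. Car3 was higher in HFC at 7 of 10 time points, by 0.89 (SE 0.27) on the log2 scale. That difference missed the threshold over 21623 genes by limma with Benjamini-Hochberg adjustment (adjusted p = 0.652). No gene of the 21623 was called in this comparison (0%), while 1473 had an unadjusted p under 0.05, and the methods' t-test also called 0. Over the 6 time points whose LFC and HFC arrays were of the same brightness class, the mean Car3 difference was 1.12, with HFC higher at 5 of them. It was 0.55 over the other 4. Each of the 3 time points at which LFC read slightly higher, Weeks 0, 3 and 12, had a bright LFC array on which Car3 was saturated, and at Week 3 the HFC array was saturated too.

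The other white fat genes differed by less than their spread between the diets. Npr3 levels ran from 0.03 to 1.79 in LFC and from -0.17 to 1.83 in HFC, with HFC lower by 0.14 (SE 0.26, n = 10 time points). Sncg levels ran from -2.40 to 1.45 in LFC and from -1.16 to 1.39 in HFC, and the difference was 0.16 (SE 0.27). For Sfrp5 the difference was -0.25 (SE 0.49) and for Npy1r -0.17 (SE 0.37). The adjusted p-values of these 4 genes lay between 0.825 and 0.863 by the same limma test. Tcf21 was well above background on 1 LFC and 2 HFC arrays and Wt1 on none of either, so no difference between the diets is given for them.

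**Figure D3:**
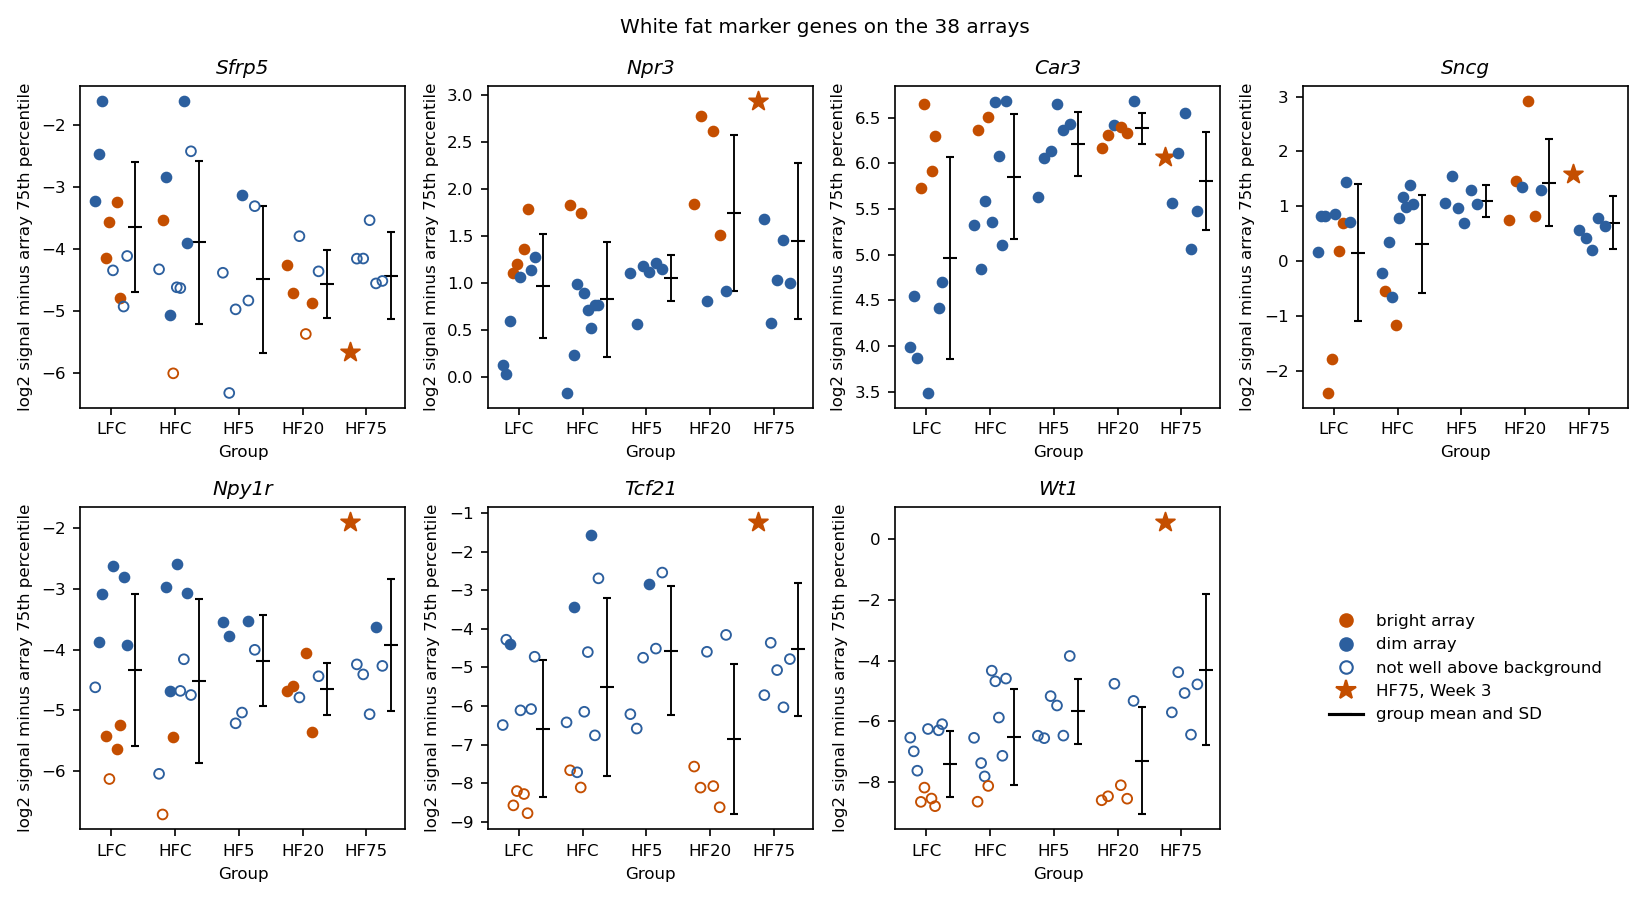
Level of each of the 7 genes on every array by group, as log2 signal minus the array's 75th percentile, with arrays in order of time within a group. Orange marks bright and blue dim arrays, open circles are not well above background, the star is HF75 Week 3, and bars give the group mean and SD. Wt1 has a filled symbol only for the star, and Car3 in LFC spans 3.49 to 6.65.

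Over the days on diet, from Day 6 to Week 18 in the LFC and HFC arrays, Sncg had the steepest slope among the 5 genes. The slope was 0.89 (SE 0.30) per 70 days on the log2 scale. It was not called over all genes (adjusted p = 0.100 by limma), in a comparison that called 308 genes or 1.42%. The low Sncg levels were LFC Week 0 at -2.40, LFC Week 3 at -1.79 and HFC Week 3 at -1.16, of which all 3 are bright arrays. From Week 6 on, the LFC and HFC levels lay between 0.19 and 1.45. The remaining bright LFC and HFC arrays read -0.53 (HFC Day 10), 0.19 (LFC Week 9) and 0.70 (LFC Week 12). With the brightness class as a term the slope was 0.73 and passed the threshold (adjusted p = 0.0467), in a fit that called 1700 genes. The other 4 genes had slopes between -0.07 and 0.50 per 70 days with adjusted p-values from 0.515 to 0.932. Days on diet run together with the age of the mice, and no scan day was shared between time points. Diet time, age and scan day cannot be told apart in these slopes.

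**Figure D4:**
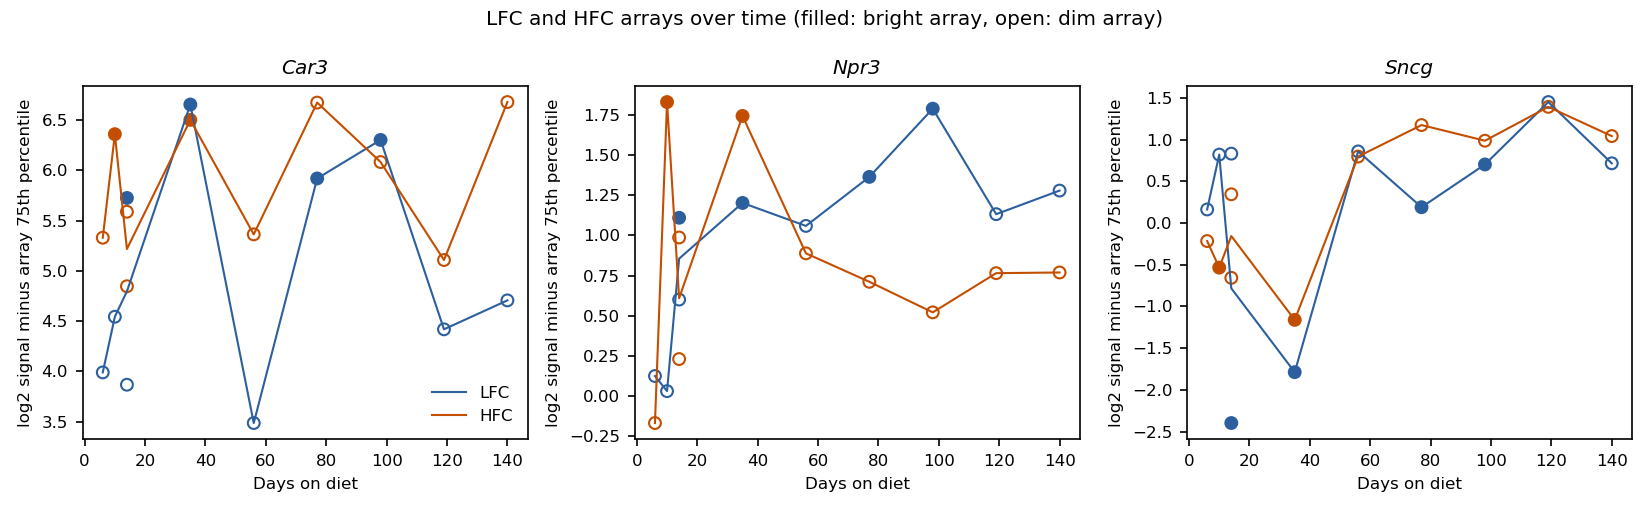
Levels of Car3, Npr3 and Sncg in LFC (blue) and HFC (orange) against days on diet, as log2 signal minus the array's 75th percentile, with filled symbols for bright arrays and lines through the mean at each day. HFC lies above LFC for Car3 at 7 of 10 time points, and the 3 lowest Sncg levels come from bright arrays.

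The next comparisons asked how Kal-1 on the high-fat diet changed the 7 genes against HFC at the same weeks. The 3 comparisons share the HFC arrays and 1 estimate of the spread from all arrays of Weeks 3 to 18, HF75 Week 3 among them. With HF20, Npr3 was higher at 6 of 6 weeks. Its HF20 levels ran from 0.81 through a median of 1.67 to 2.77, against 0.52 to 1.74 in HFC at the same weeks. The difference was 0.84 (SE 0.33) and missed the threshold (limma, adjusted p = 0.122). None of 21623 genes was called for HF20 (0%), while 7079 had an unadjusted p under 0.05. The weekly Npr3 differences fell into 2 kinds. At Weeks 3, 9 and 18, where both arrays were of the same brightness class, they were 0.09, 0.10 and 0.14. At Weeks 6, 12 and 15, where HF20 was bright but HFC dim, they were 1.88, 2.09 and 0.74. Across all arrays except HF75 Week 3, Npr3 averaged 1.78 (SD 0.55, n = 10) on bright and 0.84 (SD 0.43, n = 27) on dim arrays. Without Week 3 the HF20 difference was 0.99 and passed (adjusted p = 0.0494), as it did with array weights (0.85, adjusted p = 0.0376). Those fits called 3358 and 6130 of the 21623 genes.

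Sncg was higher in HF20 at 5 of 6 weeks, by 0.73 (SE 0.43, adjusted p = 0.222). Its HF20 levels ran from 0.74 to 2.93, and the highest, at Week 12, stood apart from the next at 1.46. Car3 lay between 6.17 and 6.69 in HF20, the narrowest range of any group, with 4 of the 6 arrays saturated, and the difference from HFC was 0.32 (SE 0.36). Sfrp5 and Npy1r differed by -0.70 (SE 0.55) and -0.54 (SE 0.55). None of these passed.

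With HF5 no gene passed the threshold. The differences ran from -0.63 (SE 0.55) for Sfrp5 to 0.40 (SE 0.43) for Sncg, and their adjusted p-values from 0.859 to 0.989 by limma. No gene of all those tested was called (0%), and 1194 had an unadjusted p under 0.05. Sfrp5 read lower in HF5 at each of the 5 weeks whose arrays were of the same brightness class, with a mean of -1.07, and the remaining week gave 1.62, although Sfrp5 was not well above background on most of these arrays. Npr3 in HF5 stayed within 1.11 to 1.22 apart from Week 6, at 0.56.

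With HF75 the differences from HFC depended on the array of Week 3. Including it, Npr3 differed by 0.55 (SE 0.33), Car3 by -0.26 (SE 0.36), Sncg by 0.00 (SE 0.43), Npy1r by 0.20 (SE 0.55) and Sfrp5 by -0.56 (SE 0.55). No gene was called (0% of 21623, with 2001 at an unadjusted p under 0.05). When that single array was left out and the fit kept all other arrays, the differences were 0.29 for Npr3, -0.26 for Car3, -0.42 for Sncg, -0.33 for Npy1r and -0.37 for Sfrp5, again with none called. Npy1r thus changed sign. Week by week, Sncg was 2.76 higher in HF75 at Week 3 and lower than HFC at each of the other 5 weeks, with a mean of -0.55 (SD 0.24, n = 5) over those weeks. For the whole brown adipocyte list the median difference was -1.44 with the pair of arrays of Week 3 and -0.35 without it, beside -0.03 for all genes either way. For the other white fat genes it was 0.35 with and -0.05 without.

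**Figure D5:**
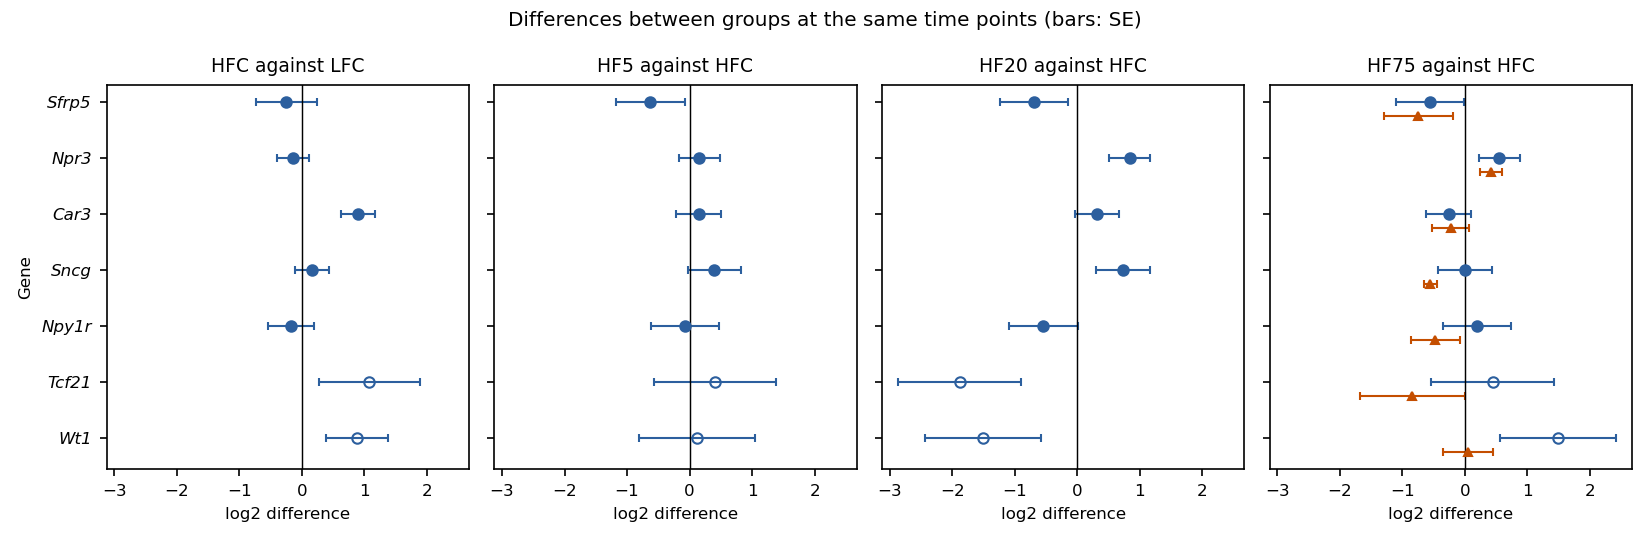
Log2 differences with standard errors for the 7 genes in HFC against LFC and in each Kal-1 group against HFC at the same time points. Open symbols are genes that did not enter the tests, and orange triangles are the mean of the 5 weekly differences between HF75 and HFC without Week 3. No difference drawn as a filled circle passed the threshold after adjustment, and the triangles were not tested. Among the filled circles, Npr3 in HF20 at 0.84 and Car3 in HFC at 0.89 lie farthest from 0 for the length of their bars.

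The last comparison asked whether the 3 doses differed from each other. None of the 5 genes was called by limma's moderated F test, in a comparison that called 2977 genes or 13.8%. Their adjusted p-values ran from 0.252 for Npr3 to 0.981 for Sfrp5. Npr3 was 0.69 (SE 0.34) higher in HF20 than in HF5, and Sncg was 0.73 (SE 0.44) lower in HF75 than in HF20. Among the lists, 3 of 12 other carbonic anhydrases were called, Car4, Car11 and Car13. Car4, a membrane-bound form, averaged 3.08 in HF5, 0.68 in HF20 and 2.52 in HF75, with an SD of 1.57 in HF20. Of 11 other white fat genes Lep and Rbl1 were called, of 15 brown adipocyte genes Ppargc1a and Kcnk3, of 10 shared genes Cebpa, Plin1 and Lipe, and of 5 mesothelial genes Gpm6a and Nkain4. Cd34 was called among 8 progenitor genes, and Tcf15, Tcf23 and Tcf4 among 6 relatives and partners of Tcf21. Without the HF75 array of Week 3 the count over all genes was 0, and with the brightness class in the model it was also 0, so none of these calls held in those fits. HF20 held 4 of the 5 bright arrays of the Kal-1 groups.

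Relations across arrays were computed within each brightness class, as 84 relations among the 7 genes and the mean of the brown adipocyte list, with all p-values from 100000 permutations adjusted over them. On the 27 dim arrays Car3 rose with the brown adipocyte mean (Pearson r = 0.60, permutation p = 0.00099, adjusted p = 0.0294, Spearman rho = 0.65, permutation p = 0.00035, adjusted p = 0.0294). Without the 2 arrays farthest from the median of Car3, r was 0.58, and after the mean of each diet group was removed it was 0.37. With quantile normalization r was 0.42 and did not pass (adjusted permutation p = 0.176), and it was 0.06 after the group means were removed. Car3 was saturated on 9 of the 10 bright arrays other than HF75 Week 3, so no relation is read from them. Npy1r fell with the brown adipocyte mean on the 27 dim arrays (r = -0.54, permutation p = 0.00408, adjusted p = 0.0490, rho = -0.59, permutation p = 0.00158, adjusted p = 0.0306). Without the 2 arrays farthest from its median r was -0.53, but with signals at the background floor it was 0.34 and did not pass (adjusted permutation p = 0.218). Npr3 and Sncg rose together on the 11 bright arrays (r = 0.79, permutation p = 0.0038, adjusted p = 0.0490, rho = 0.82, permutation p = 0.0031, adjusted p = 0.0372), and r was 0.82 without the 2 arrays farthest from the median of Npr3. Without HF75 Week 3 it was 0.80 with an adjusted permutation p of 0.0529, and with quantile normalization it did not pass either (adjusted permutation p = 0.145). On the 27 dim arrays, where both genes were also well above background, their r was 0.25 and did not pass (adjusted permutation p = 0.453). The other 4 relations past the threshold involved Sfrp5, Npy1r, Tcf21 or Wt1, whose readings were partly or mostly at background. All values of an array share its 75th percentile, so these relations are not free of the scaling.

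The genes whose levels were most like those of the 5 genes that entered the tests are named as a description. Bright and dim arrays were pooled over all 38, and readings at background and saturated Car3 spots are included. Npy1r, for one, averaged -5.33 on the bright arrays other than HF75 Week 3 and -4.07 on the dim arrays. How far brightness enters these r was not tested. For Car3 these were Cidec, a lipid droplet protein (r = 0.77), Pon1, a paraoxonase (r = 0.73), and Pfn4 (r = 0.72). For Npr3 they were Abcc1 (r = 0.75), Large (r = 0.75) and LOC100045882 (r = 0.72). For Sncg they were Aldh1a1, an enzyme of retinoic acid synthesis (r = 0.70), Lgals3, which encodes galectin 3 (r = 0.65), and Capg (r = 0.63). For Npy1r they were Clu (clusterin, r = 0.85), Entpd1 (r = 0.81) and Tgfb3 (r = 0.79). For Sfrp5 they were Rab38 (r = 0.81), Lbx1 (r = 0.81) and 4921525H12Rik (r = 0.81), themselves above background on 11 to 20 arrays. Without HF75 Week 3 these r lay between 0.62 and 0.85, and the greatest move was for Car3 with Pon1, to 0.78.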

How the data were processed

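Total RNA of brown adipose tissue was labelled with Cy3 and hybridised to a 1-colour Agilent mouse array. The deposited intensity values are processed signals that, per the file headers, Feature Extraction 10.5.1.1 had background-subtracted and spatially detrended (the submitters' processing notes name version 9.1). The authors also deposited a table of log2 ratios in which each array is divided by its time-matched LFC array. It served only as an alternative and without Week 15, whose columns do not follow the probe names.

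Spots flagged as non-uniform outliers were left out, spots of a probe averaged, and log2 intensities centred on the 75th percentile of each array. The probe with the highest mean stood for a gene. Groups were compared with limma 3.58.1 (lmFit and eBayes, R 4.3.3) with the time point as a block, since each time point holds 1 array per group, and p-values were adjusted over 21623 genes by Benjamini and Hochberg. A threshold of 0.05 was used. The trend used days on diet within LFC and HFC, and Week 0 was set at 14 days. Slides (32) and scan days (12) were tried as random blocks. Some genes and sequences are not reported here. Array number, probe brightness and background limit the precision.

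The members and gene lists were chosen with earlier results of these data known. Named were the 7 members, the listed genes that passed in a comparison (at most 3 per list), the 3 of each list farthest from the other HF75 arrays on HF75 Week 3, and the 3 genes most like each member. Other genes were named for their role after their values were seen. Alternatives chosen after seeing the data were the fit without both the filter and HF75 Week 3, and all alternatives for the relations and for the values on HF75 Week 3.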

Additional observations from a re-analysis of the deposited data

Results flagged for a closer look

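Within the 35 sets formed by the 7 genes and 5 groups, 4 had an array whose distance to its nearest neighbour was large for the range of its group (Dixon's test, critical value 0.625 for 6 arrays). Chance alone gives about 1 in 20 sets, a rate that does not apply to Wt1 and Tcf21, because HF75 Week 3 was singled out beforehand and none of their other HF75 readings was well above background. Wt1 on the array labelled HF75 Week 3 was 0.54, with the next HF75 array at -4.38. Tcf21 on the same array was -1.23, with the next at -4.36. Sncg on HF20 Week 12 was 2.93, with the next HF20 array at 1.46. Npr3 on HF5 Week 6 was 0.56, below the next HF5 array at 1.11. All 4 signals were well above background on the arrays concerned.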

How the results depend on the processing

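Of 885 values recomputed under alternatives, 652 values of single genes or counts over all genes were labelled the same. So were 117 counts of members or relations. In a comparison, a gene's value was the same if it kept its direction and its side of the threshold. The spread between arrays was used as a limit only for the values on HF75 Week 3, which have no test. A count was the same if it stayed at 0 or changed by a small ratio. As reported, none of the 5 tested genes was called, and 0 were called without the replicate block, where Car3 in HFC against LFC had an adjusted p of 0.859. The count of called genes among the 5 became 1 for the trend with the brightness class in the model (Sncg), and 1 for HF20 with array weights (Npr3). Leaving out each time point in turn gave 0 to 1 for HF20, the 1 being Npr3 without Week 3. The count of relations past the threshold was 7 of 84, and 2 with quantile normalization, 29 with normexp and 17 with signals raised to the background floor. Over all genes, the trend gave 308 calls, and between 2 (scan day as a random block) and 1700 (brightness class), with 7 to 596 when a time point was left out. HF20 gave 0 calls, and 6130 with array weights or 3358 without Week 3. The F test among the doses gave 2977 calls, 1312 without the replicate block, 6406 with slide as a random block, 8701 with array weights, and 0 without HF75 Week 3, with normexp, without the filter, with the deposited table or with the brightness class, and 0 to 5432 when a time point was left out.

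Differences that were never called changed sign as follows. With normexp, Sfrp5 and Npy1r in HFC against LFC became 0.29 and 0.30, the trends of Sfrp5, Npr3 and Car3 became 0.80, -0.043 and -0.33, Sncg in HF75 against HFC became 0.22, and on HF75 Week 3 against the other HF75 arrays Npy1r and Tcf21 became -1.38 and -1.04. With quantile normalization, the trend of Npy1r became -0.18, Car3 and Npy1r in HF5 became -0.15 and 0.041, and Sfrp5 and Npy1r in HF20 became 0.064 and 0.53. With signals at the background floor, Npy1r became 0.41 in HFC against LFC and 0.25 in HF5, and the trend of Sfrp5 became 0.093. With the brightness class, Npr3 and Sncg in HFC against LFC became 0.057 and -0.062, and Car3 in HF20 became -0.13. With array weights, Sncg in HFC against LFC became -0.039 and Npy1r in HF75 became -0.57. With the mean of all probes, Npr3 became 0.0014 in HFC against LFC and -0.028 in HF5. With the deposited table, Car3 in HF5 became -0.10 and Sncg in HF75 became 0.12. Without HF75 Week 3, Npy1r in HF75 became -0.33, with or without the filter, and Tcf21, which has a value only in the fit without the filter, became -0.55. When each time point was left out, Sncg and Npy1r in HFC against LFC ranged from -0.013 to 0.33 and from -0.31 to 0.12, the trend of Sfrp5 from -0.34 to 0.18, Car3 and Npy1r in HF5 from -0.078 to 0.35 and from -0.46 to 0.15, and Sncg and Npy1r in HF75 from -0.55 to 0.16 and from -0.47 to 0.57. The cause of these changes was not tested. Signals near background limit Sfrp5, Npy1r, Tcf21 and Wt1, and saturation limits Car3.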
